A study of Mus musculus with 24 samples.

Results

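The 39 Hox genes of the HoxA, HoxB, HoxC and HoxD clusters were followed through a total RNA-seq series on substitutions in CTCF in mouse embryonic stem cells. The members are the rows whose symbol is Hox, a cluster letter and a paralog number, which gave 39 of the 55291 genes in the tables, 11 in HoxA, 10 in HoxB, 9 in HoxC and 9 in HoxD. The cells were E14Tg2a (strain 129/Ola), grown without feeders in serum with leukemia inhibitory factor and inhibitors of GSK3 and MEK, in a line whose endogenous CTCF carries an auxin-inducible degron. Into this line went a doxycycline-inducible Ctcf transgene, wild type (WT) or with 1 of 9 substitutions: R339Q, R342C, S354F, K365T, R377C, R377H, Q418R, R448Q or H455R. The series has 24 libraries, 2 in each of 12 groups. WT UN is the wild-type transgene line with no treatment. WT IAA is the same line given 500 µM indole-3-acetic acid (IAA) for 2 days, which degrades endogenous CTCF with the transgene off. WT ID is that line given 500 µM IAA and 1 µg/ml doxycycline for 2 days, and the 9 mutant groups, written R339Q ID and so on, received the same 2 agents in their own lines. All groups but WT UN were thus treated with IAA.

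Each transgene sits in a line of its own and no substitution has a replicate line here, so the effects of a substitution and of its line cannot be told apart. Nothing in the labels states that the libraries of a pair come from independent cultures, so the p-values here reflect library-to-library spread only, possibly technical. WT UN was deposited in a table scaled apart from the other 22 libraries, so untreated cells are compared only by TPM (a read share corrected for gene length and library size), and treatment and table cannot be told apart there.

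Hox genes encode homeodomain transcription factors that give cells their place along the head-to-tail axis and the limbs. In each cluster the genes with low paralog numbers act early and in anterior regions, and those with high numbers act late and in posterior regions. In embryonic stem cells the clusters are covered by Polycomb repressors and transcribed weakly. CTCF, a protein that binds DNA through a row of zinc fingers and halts the cohesin complex, has sites between Hox genes, where it is known to separate active from repressed stretches of a cluster.

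The 250 bases upstream of RefSeq transcript starts were available for 22 of the 39 members (24 windows, RefSeq, build GRCm38.p6, which is mm10). Windows are shown for 5 of the 6 HoxD genes that fell in Q418R ID and for Hoxa7 and Hoxb4, which rose in 3 and 5 of the 10 comparisons with WT ID and fell in others. Capitals mark 3 short motifs on either strand, the CCAAT box, the GC box GGGCGG and the TATA box TATAAA. The positions and strands are chr2:74721728-74721977 (+) for Hoxd4, chr2:74704365-74704614 (+) for Hoxd8, chr2:74697513-74697762 (+) for Hoxd9, chr2:74691641-74691890 (+) for Hoxd10, chr2:74667975-74668224 (+) for Hoxd13, chr6:52218574-52218823 (-) for Hoxa7 and chr11:96318017-96318266 (+) for Hoxb4, and each window is printed 5′ to 3′ on the gene's strand.
Hoxd4: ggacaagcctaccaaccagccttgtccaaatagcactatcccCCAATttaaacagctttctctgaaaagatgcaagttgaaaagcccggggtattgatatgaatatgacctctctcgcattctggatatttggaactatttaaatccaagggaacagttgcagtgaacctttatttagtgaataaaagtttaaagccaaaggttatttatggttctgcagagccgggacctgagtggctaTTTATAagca
Hoxd8: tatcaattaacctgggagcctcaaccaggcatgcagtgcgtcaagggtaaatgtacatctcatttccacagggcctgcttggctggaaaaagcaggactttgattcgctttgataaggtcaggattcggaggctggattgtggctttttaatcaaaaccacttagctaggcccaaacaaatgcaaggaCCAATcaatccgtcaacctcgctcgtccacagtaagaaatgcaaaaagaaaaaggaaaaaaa
Hoxd9: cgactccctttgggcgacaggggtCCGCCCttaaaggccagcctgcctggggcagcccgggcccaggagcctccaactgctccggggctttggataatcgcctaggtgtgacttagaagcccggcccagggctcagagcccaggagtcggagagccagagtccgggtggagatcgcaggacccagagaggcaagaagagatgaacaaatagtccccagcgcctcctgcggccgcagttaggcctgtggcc
Hoxd10: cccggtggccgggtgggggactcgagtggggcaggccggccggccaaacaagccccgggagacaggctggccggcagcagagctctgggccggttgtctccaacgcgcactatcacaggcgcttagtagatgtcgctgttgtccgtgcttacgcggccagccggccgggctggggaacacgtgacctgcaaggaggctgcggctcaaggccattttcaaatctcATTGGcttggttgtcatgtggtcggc
Hoxd13: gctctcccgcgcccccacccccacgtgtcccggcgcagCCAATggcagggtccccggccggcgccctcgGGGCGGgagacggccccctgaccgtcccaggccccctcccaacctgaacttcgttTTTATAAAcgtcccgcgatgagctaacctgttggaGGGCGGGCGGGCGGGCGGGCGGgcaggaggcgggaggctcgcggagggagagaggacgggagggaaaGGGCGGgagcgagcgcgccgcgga
Hoxa7: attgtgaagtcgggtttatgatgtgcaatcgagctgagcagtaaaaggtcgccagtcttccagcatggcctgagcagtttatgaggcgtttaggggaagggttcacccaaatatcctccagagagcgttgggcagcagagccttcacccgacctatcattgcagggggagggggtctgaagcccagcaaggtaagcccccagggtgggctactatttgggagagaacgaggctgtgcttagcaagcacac
Hoxb4: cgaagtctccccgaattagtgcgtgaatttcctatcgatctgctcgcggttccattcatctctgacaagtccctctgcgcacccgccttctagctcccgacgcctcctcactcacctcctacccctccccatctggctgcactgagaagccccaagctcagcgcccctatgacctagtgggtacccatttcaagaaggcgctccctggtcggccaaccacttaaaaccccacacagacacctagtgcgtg

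The windows differ in composition: Hoxd13 holds 31 CpG dinucleotides and Hoxd10 20, while Hoxd4 holds 3 and Hoxd8 6. The median was 12.5 CpG over the 24 Hox windows and 6 over all 32851 windows of the table. A CCAAT box on either strand was in 14 of 24 Hox windows (58.3%) and in 33.8% of all windows. GGGCGG was in 10 (41.7%, against 32.7%) and TATAAA in 4 (16.7%, against 12.4%). Among the windows printed, Hoxa7 and Hoxb4 held none of the 3 motifs and each of the 5 HoxD windows held at least 1. Windows not printed cut across this. The window of Hoxa3, a gene called down in 5 of the 10 comparisons and up in 0, held none. Nor did the Hoxd11 window at chr2:74679308-74679557. A match or its absence in these letters says nothing of what is bound there.

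Libraries held 27.8 to 77.1 M reads, recovered from the deposited normalized counts. The mean of the 2 WT ID libraries is the reference of most comparisons. Ctcf itself stood at 125 to 284 TPM over the 24 libraries, endogenous and transgene RNA together, and was highest in R448Q ID (278 and 284) and H455R ID (261 and 270). This RNA does not check the degron, which acts on the protein. The 8 embryonic stem cell markers checked (Pou5f1, Sox2, Nanog, Esrrb, Klf4, Zfp42, Tfcp2l1 and Dppa5a) summed to 8183 to 10304 TPM in each library and none was below 1 TPM in any group. Summed markers of other lineages were far lower: 66.3 to 234 TPM for 8 neural ectoderm genes, 14.9 to 34.8 for 8 mesendoderm genes, 7.87 to 37.4 for 7 primitive endoderm genes, 83.5 to 236 for 8 trophectoderm genes, 95.98 to 318 for 8 posterior and neuromesodermal genes, most of it Cdx1, and 1.78 to 10.2 for 8 fibroblast genes. Within the trophectoderm list Elf5 was listed at 0 in WT IAA and WT ID.

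Most Hox genes were transcribed at a low level. In WT ID, 25 of the 39 stood at 1 TPM or more, 10 at 5 or more and 6 at 10 or more. Over all 24 libraries, Hoxb9 (22.5 TPM), Hoxc13 (20.5), Hoxc12 (18.9), Hoxc4 (11.9) and Hoxd9 (10.4) had means above 10 TPM. In WT ID the 20.2 and 25.6 TPM of Hoxb9 overlapped with the 22.7 and 20.1 of Hoxc13, so their order is within the spread between libraries. Hoxc13 acts in hair and nail, and Hoxb9 in the ribs and mammary gland.

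The clusters differed in which end was transcribed. In HoxB the 3 genes of paralog groups 1 to 3 had a median of 0.0415 TPM in WT ID and Hoxb9 and Hoxb13, at the posterior end, a median of 14.9 TPM. HoxA was the other way round, with a median of 4.83 TPM over its genes of groups 1 to 3 and of 1.06 TPM over its 4 genes of groups 9 to 13. All 9 HoxC genes reached 1 TPM in WT ID, with medians of 2.12 TPM for groups 4 to 8 and 5.66 TPM for groups 9 to 13. HoxD had 3 genes above 1 TPM, Hoxd8, Hoxd9 and Hoxd13, with the weak Hoxd10, Hoxd11 and Hoxd12 lying between Hoxd9 and Hoxd13. Hoxd9 had 14.9 and 11.2 TPM in WT ID and its neighbour Hoxd10 had 0.439 and 0.120.

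**Figure D1:**
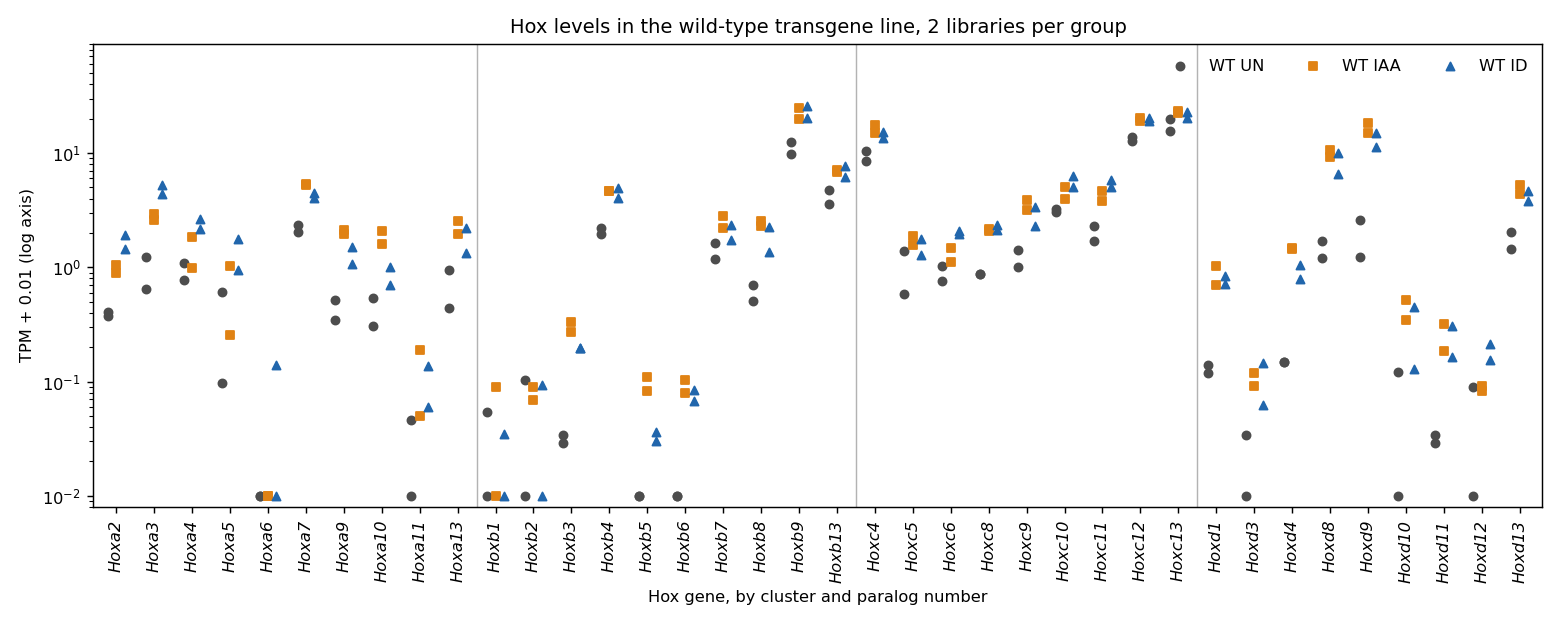
TPM plus 0.01 on a log axis of 38 Hox genes, ordered by cluster and paralog number, in the 2 libraries each of WT UN, WT IAA and WT ID. Genes listed at 0 TPM sit at 0.01, Hoxb9, Hoxc12 and Hoxc13 are at the top, and the untreated points lie lowest for most genes, with the widest gap in HoxD.

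Of the 39 members, 31 had a mean of at least 10 normalized counts over the 22 jointly scaled libraries and were tested: 9 in HoxA, 6 in HoxB, all 9 in HoxC and 7 in HoxD. The 8 others, Hoxa6, Hoxa11, Hoxb1, Hoxb2, Hoxb5, Hoxb6, Hoxd3 and Hoxd12, had 0 to 18 reads per library. Hoxd10 passed through the groups where it is high (mean 11.1, and 9.93 without H455R ID). Reads of overlapping genes can be shared: 14 of the 39 overlap a gene on the opposite strand, the counting of strands is not given in the sources used here, and 15 overlap a gene on their own strand, among them Hoxa3 (which spans Hoxa4, Hoxa5 and Hoxa6), Hoxc5 (which overlaps Hoxc6, Hoxc8, Hoxc9 and Hoxc10) and Hoxd3 with Hoxd4. For these, the split of reads between the genes is uncertain.

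In untreated cells the summed levels of HoxA, HoxB and HoxD were the lowest of the 12 groups, and HoxD was the furthest below WT ID. The HoxD sum was 6.82 and 4.13 TPM in WT UN, against 23.5 to 37.6 TPM in the 4 libraries of WT IAA and WT ID, and the mean was 0.195 of that in WT ID. For HoxA, HoxB and HoxC the same ratio was 0.436, 0.506 and 0.660. A floor of 0.1 TPM was set on the mean over WT UN and WT ID, and 32 members passed it. By mean TPM + 0.1, all 32 were lower in WT UN than in WT ID, with a median log2 ratio of -1.24. Of them 21 were at least 2-fold lower with no overlap of libraries, where 12.2% of all such genes were. Hoxb3, Hoxd10, Hoxd11 and Hoxd12 averaged below 0.1 TPM in WT UN and passed only through WT ID. For these a lower level in WT UN was fixed in advance, and Hoxb3, Hoxd10 and Hoxd11 are among the 21. No member was 2-fold higher (background 3.35%). The median of all genes was itself shifted by -0.20, a gap of -1.04 to the Hox median. With TPM + 1 in place of TPM + 0.1, 32 of 32 members were again lower than in WT ID, but 4 were 2-fold lower without overlap, and 9 of 31 against WT IAA. The share of all genes was not counted on that scale, so these 2 counts have no background. The Hox median against WT ID was -0.72 there, beside -0.13 for all genes. These are descriptions of 2 libraries against 2, with no test.

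Hoxd9, a limb and spinal cord patterning gene, had 2.60 and 1.22 TPM in untreated cells, 18.4 and 15.1 in WT IAA, and 14.9 and 11.2 in WT ID. Hoxd8 had 1.70 and 1.19 TPM in untreated cells, 10.7 and 9.22 in WT IAA, and 10.1 and 6.49 in WT ID. For both genes the untreated libraries lay below all 22 treated ones. They were 6.55-fold and 5.44-fold lower than in WT ID on the TPM + 0.1 scale. Hoxd4, which shapes the cervical vertebrae, had 0.137 and 0.138 TPM in untreated cells, 1.46 and 1.44 in WT IAA, and 1.04 and 0.788 in WT ID. Hoxd13, the most posterior HoxD gene and a digit patterning factor, had 2.04 and 1.44 TPM in untreated cells, 5.22 and 4.33 in WT IAA, and 4.68 and 3.83 in WT ID. Of the 8 HoxD genes above the TPM floor 7 were called lower, with a median log2 ratio of -1.70. Among the 7 are Hoxd10 and Hoxd11, which passed the floor only through WT ID.

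In HoxA 6 of 9 members were called lower (median -1.29). Hoxa3, which acts in the pharyngeal arches, thymus and parathyroid, had 1.23 and 0.636 TPM in untreated cells, 2.93 and 2.60 in WT IAA, and 5.29 and 4.38 in WT ID. In HoxB 4 of 6 were called lower (median -1.05), among them Hoxb4, a regulator of blood stem cells, with 2.21 and 1.97 TPM in untreated cells, 4.68 and 4.62 in WT IAA, and 4.95 and 4.02 in WT ID, and Hoxb9, with 9.74 and 12.5 TPM in untreated cells, 20.02 and 24.9 in WT IAA, and 20.2 and 25.6 in WT ID. Hoxb3, also called, passed the floor only through WT ID. In HoxC 4 of 9 were called lower (median -0.85). Hoxc11, a hindlimb gene, had 1.70 and 2.29 TPM in untreated cells, 3.78 and 4.69 in WT IAA, and 5.02 and 5.75 in WT ID. The abundant Hoxc13 was not called, with 19.8 and 15.7 TPM in untreated cells, 23.3 and 22.4 in WT IAA, and 22.7 and 20.1 in WT ID (1.21-fold lower).

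Against WT IAA, in which the transgene was off, 21 of 31 members were called lower and 0 higher, with a median log2 ratio of -1.24, where all genes had a median of -0.22 and 15.8% were called lower and 4.34% higher. HoxD was called lower in 7 of 7, but Hoxd10 and Hoxd11 passed the floor only through WT IAA. So did Hoxb3, which was called lower too. Over the whole series, 11 of the 34 members above 0.1 TPM had both untreated libraries below all 22 others (background 10.9%). They were 5 in HoxB, 3 in HoxD, 2 in HoxA and 1 in HoxC. Hoxb3 and Hoxd11, which passed that floor only through the treated groups, are among the 11. With TMM-scaled CPM in place of TPM, which moved the median of all genes to -0.06, 20 members were called lower against WT ID and 18 against WT IAA. The share of all genes called lower was not counted with CPM.

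Known inputs of the clusters were lower or higher in WT UN beside them. Cdx1, an upstream activator of Hox genes, averaged 91.2 TPM in WT UN, 211 in WT IAA and 233 in WT ID, and Aldh1a2, which makes retinoic acid, 1.07, 15.2 and 12.2 TPM. The retinoic acid receptor gene Rara went the other way, at 58.4, 30.5 and 39.8 TPM, as did Crabp2, which carries retinoic acid, at 15.5, 5.99 and 4.57, and Wnt3a, at 1.18, 0.518 and 0.216. These 5 of the 18 listed inputs were picked after their values were seen. The posterior list summed to 96.0 and 113 TPM in WT UN and to 219 to 245 in WT IAA and WT ID, most of it Cdx1, while Nkx1-2 of that list averaged 8.29, 3.60 and 3.83 TPM in WT UN, WT IAA and WT ID. The primitive endoderm list summed to 8.41 and 7.87 against 13.9 to 22.9, while the 8 embryonic stem cell markers summed to 9662 and 9682 against 8263 to 9213. Their part in the Hox levels was not tested. In bulk RNA, fewer transcribing cells and less RNA per cell cannot be told apart.

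**Figure D2:**
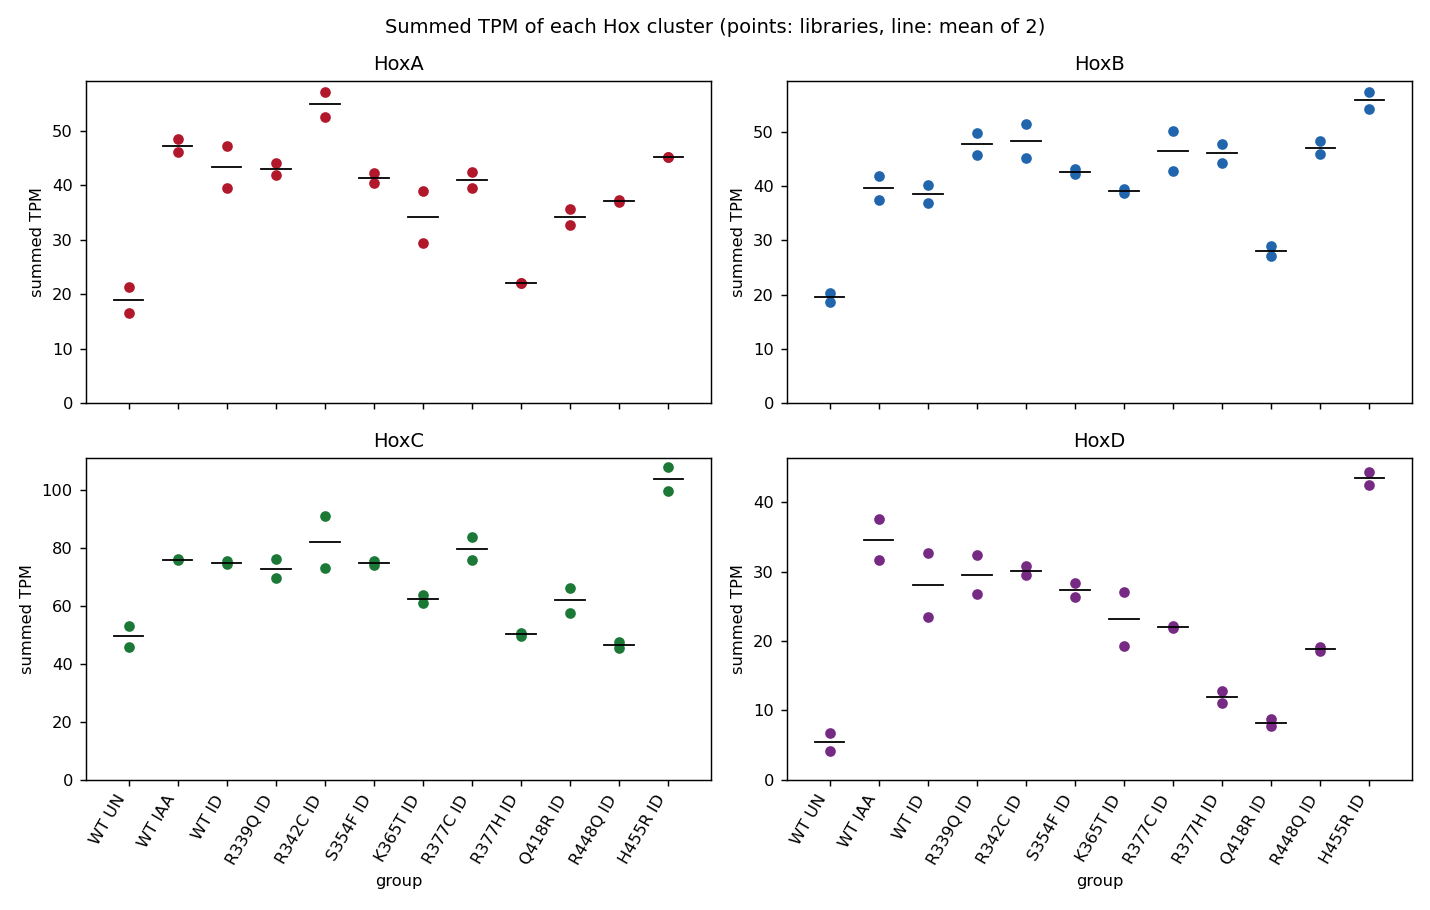
Summed TPM of the members of each Hox cluster in the 24 libraries (points) with the mean of each group (line), on axes from 0. WT UN is lowest in HoxA, HoxB and HoxD, Q418R ID and R377H ID follow in HoxD, R448Q ID is lowest in HoxC, and H455R ID is highest in HoxB, HoxC and HoxD.

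Among the treated groups, the HoxD sum ran from 8.22 TPM in Q418R ID through 11.96 in R377H ID, 18.8 in R448Q ID and 22.1 in R377C ID to 28.1 in WT ID, 34.6 in WT IAA and 43.5 in H455R ID. Libraries of Q418R ID, R377H ID, R448Q ID and R377C ID did not overlap with one another, whereas K365T ID, S354F ID, R339Q ID and R342C ID overlapped with WT ID (32.6 and 23.5 TPM) or with one another. In HoxC the lowest sums were those of R448Q ID (46.7 TPM) and R377H ID (50.2), and WT ID had 74.9. H455R ID had 104 TPM, and its libraries were above those of every other group. In HoxA only R377H ID (22.1 TPM) was near the untreated sum (18.9), against 43.3 in WT ID. In HoxB Q418R ID had 28.0 TPM against 38.5 in WT ID and 55.7 in H455R ID. Over the 31 tested members, the group with the lowest mean TPM was WT UN for 16, R377H ID for 6, Q418R ID for 5, R448Q ID for 3 and K365T ID for 1. The highest was H455R ID for 16, R342C ID for 8, WT IAA for 5, and K365T ID and R448Q ID for 1 each. The 16 of H455R ID include Hoxd10, which passed the filter only through that group. WT UN did not enter the filter, so a low level there could not exclude a member. Extreme groups were not counted over all genes, so these counts have no background.

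Across the 11 groups of the joint table, 30 of the 31 tested members differed by the limma F test (all but Hoxa5, adjusted p = 0.0758), where 78.1% of all 18713 genes did. In the 10 comparisons with WT ID, 28 of the 31 were called at an adjusted p under 0.05 at least once, 14 only downward, 5 only upward and 9 in both directions. Hoxa5, Hoxb3 and Hoxd11 were called in none. The share of all genes called at least once was not counted. Of 310 pairs of a member and a comparison, 75 were called, 48 downward and 27 upward. In single comparisons 3.43% to 23.1% of all genes were called down and 4.67% to 22.8% up. These totals alone therefore do not set the members apart from all genes. These comparisons all use the same 2 WT ID libraries, so they are not independent of one another.

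**Figure D3:**
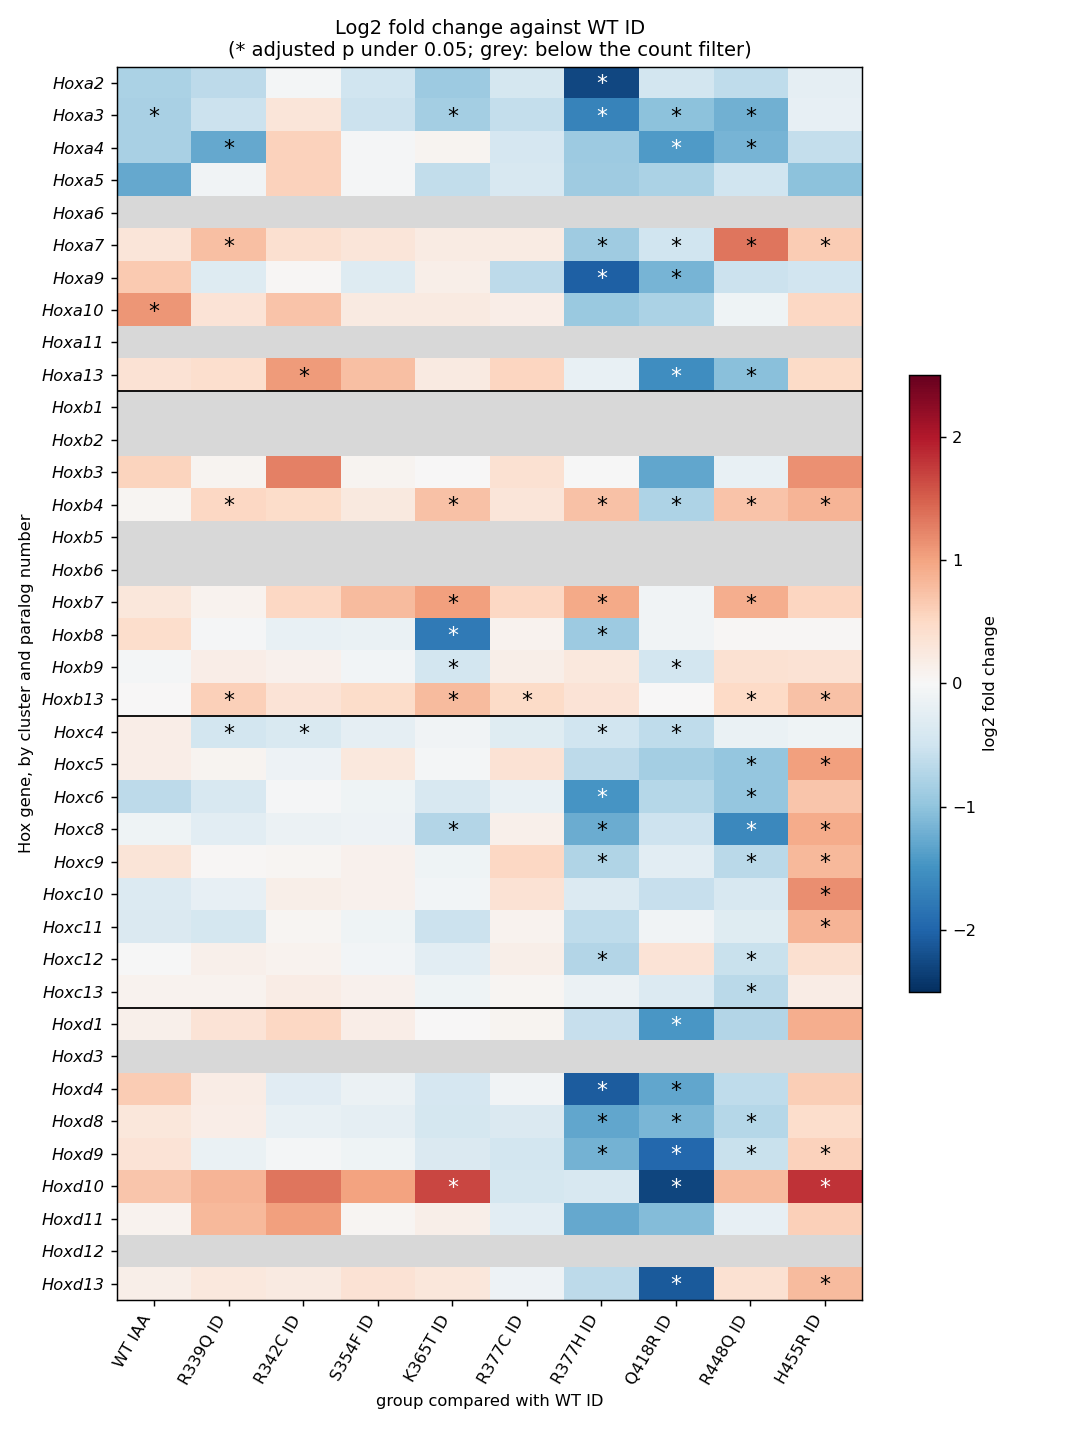
Log2 fold change against WT ID of 38 Hox genes (rows, by cluster and paralog number) in the 10 other groups of the joint table (columns). Red is higher and blue lower than in WT ID, asterisks mark an adjusted p under 0.05, and grey rows are the 8 members below the count filter; the HoxD genes are blue in R377H ID and Q418R ID, and the HoxC genes are blue in R448Q ID and red in H455R ID.

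In Q418R ID the HoxD cluster fell: 6 of its 7 tested members passed the test downward, with a median log2 fold change of -1.45, while the 7 tested coding neighbours within 1 Mb had a median of 0.08 and 0 calls. Over all clusters 14 of 31 members fell and 0 rose, where 13.8% of all genes fell and 11.2% rose, and the Hox median was -0.78 beside 0.01 for all genes. HoxA had 5 of 9 lower, HoxB 2 of 6 and HoxC 1 of 9. Without Hoxd10, which passed the filter only through H455R ID, 5 of 6 HoxD members fell (median -1.38), and 13 of 30 over all clusters (median -0.74). Hoxd9 had 101.0 and 86.8 normalized counts in Q418R ID against 409 and 331 in WT ID, a log2 fold change of -1.96 ± 0.16 (SE), limma adjusted p = 4.66e-08. Hoxd13 had 29.5 and 34.9 in Q418R ID against 149 and 131 in WT ID, a log2 fold change of -2.09 ± 0.24 (SE), limma adjusted p = 2.89e-06. Hoxd8 had 148 and 120.0 in Q418R ID against 356 and 246 in WT ID, a log2 fold change of -1.15 ± 0.21 (SE), limma adjusted p = 0.000517. For these 3 genes, whose promoters are printed above, both Q418R ID libraries lay below all other libraries of the joint table for Hoxd9 and Hoxd13, and below both WT ID libraries for Hoxd8. Their promoters differ, Hoxd13 being rich in CpG and GGGCGG and Hoxd8 poor in both.

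The weakly transcribed HoxD genes were lower too. Hoxd4 had 12.4 and 15.3 normalized counts in Q418R ID against 39.5 and 32.1 in WT ID (log2 fold change -1.31 ± 0.41 (SE), limma adjusted p = 0.0262), and Hoxd1 had 3.11 and 11.9 in Q418R ID against 19.8 and 18.05 in WT ID (log2 fold change -1.45 ± 0.51 (SE), limma adjusted p = 0.0449). Hoxd10, a hindlimb and lumbar gene, was found in 1 read over both Q418R ID libraries and 17 reads in WT ID, a ratio of normalized counts of 0.0738 (95% interval of the ratio from counting error 0.00176 to 0.471), and its fitted adjusted p was 0.00893. Hoxd12, below the filter, had 1 read against 14 (ratio 0.0896, 0.00212 to 0.589). Hoxd11 had 6.21 and 4.26 against 16.1 and 9.02 and did not pass (log2 fold change -1.09). Hoxd1 was called neither by edgeR (adjusted p = 0.136) nor by DESeq2 (adjusted p = 0.180).

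HoxA lies on chromosome 6, whose genes had a median log2 fold change of -0.46 in Q418R ID, and 5 of the 7 coding neighbours of HoxA within 1 Mb fell as well (median -0.34, Hibadh and Cbx3 among them at -0.47 and -0.41). Hoxa13, a gene of digits and the urogenital tract, had 24.9 and 13.6 normalized counts in Q418R ID against 69.5 and 45.1 in WT ID (log2 fold change -1.55 ± 0.27 (SE), limma adjusted p = 0.000298). After centring on its chromosome it was -1.08 (adjusted p = 0.00692). Hoxa3 had 194 and 185 in Q418R ID against 408 and 364 in WT ID (log2 fold change -1.02 ± 0.20 (SE), limma adjusted p = 0.00101), Hoxa9, a blood progenitor gene, 32.6 and 52.8 in Q418R ID against 108 and 81.2 in WT ID (-1.16 ± 0.26 (SE), adjusted p = 0.00270), Hoxa4 29.5 and 11.1 in Q418R ID against 43.9 and 58.2 in WT ID (-1.43 ± 0.44 (SE), adjusted p = 0.0235) and Hoxa7 110.3 and 120.0 in Q418R ID against 150.0 and 176 in WT ID (-0.50 ± 0.18 (SE), adjusted p = 0.0475). Relative to the chromosome median these 4 did not pass, with log2 fold changes of -0.55 (adjusted p = 0.0573), -0.68 (adjusted p = 0.0676), -0.95 (adjusted p = 0.132) and -0.02 (adjusted p = 0.947). Of the 14 calls, 9 remained with this centring.

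Elsewhere Hoxb4 had 88.5 and 88.5 normalized counts in Q418R ID against 163 and 142 in WT ID (log2 fold change -0.78 ± 0.18 (SE), limma adjusted p = 0.00281), the lowest Hoxb4 level of the joint table and opposite in direction to 5 other mutant lines. Hoxb9 had 609 and 522 in Q418R ID against 668 and 908 in WT ID (log2 fold change -0.47 ± 0.16 (SE), limma adjusted p = 0.0388), and centring on the chromosome gave -0.46 (adjusted p = 0.0529). Hoxc4 had 318 and 312 in Q418R ID against 503 and 478 in WT ID (log2 fold change -0.63 ± 0.11 (SE), limma adjusted p = 0.000393). With any 1 of the 4 libraries left out, Hoxa3, Hoxa13, Hoxb4, Hoxc4, Hoxd8, Hoxd9 and Hoxd13 still passed (adjusted p of at most 0.0424). Hoxa4 did not pass without WT ID replicate 1, WT ID replicate 2 or Q418R ID replicate 2 (adjusted p of up to 0.295). Hoxa7 and Hoxd4 did not pass whichever of the 4 libraries was left out (adjusted p of up to 0.276 and 0.152). Hoxa9 and Hoxd10 did not pass without WT ID replicate 1 or Q418R ID replicate 1 (adjusted p of up to 0.0661 and 0.158). Hoxb9 did not pass without WT ID replicate 2, Q418R ID replicate 1 or Q418R ID replicate 2 (adjusted p of up to 0.409). Hoxd1 did not pass without WT ID replicate 1, WT ID replicate 2 or Q418R ID replicate 1 (adjusted p of up to 0.506). Calls numbered 9 without WT ID replicate 1, 9 without WT ID replicate 2, 9 without Q418R ID replicate 1 and 11 without Q418R ID replicate 2. Of the 14 calls, edgeR on recovered reads also made 12, all but Hoxa7 and Hoxd1, and DESeq2 made 11, with no adjusted p for Hoxd10. Among marker lists, the mesendoderm sum was 15.4 and 14.9 TPM in Q418R ID against 34.7 and 29.00 in WT ID (Gsc fell, and T rose by 1.35 on the log2 scale), and its part in the Hox result was not tested.

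In R377H ID the HoxA, HoxC and HoxD clusters were lower and HoxB was not. There 14 of 31 members fell and 2 rose, where 10.7% and 14.4% of all genes did, with a Hox median of -0.74 beside -0.01 for all genes. HoxA had 5 of 9 lower (median -0.90), HoxC 5 of 9 (-0.65) and HoxD 3 of 7 (-1.19), and all members of the 3 clusters that were tested had a negative fold change. Coding neighbours of these clusters had medians of -0.04, -0.05 and 0.07. Hoxa2, Hoxa9 and Hoxa3 had the largest changes in HoxA. Hoxa2, which specifies pharyngeal arch skeleton, had 8.25 and 6.52 normalized counts in R377H ID against 43.9 and 35.1 in WT ID (log2 fold change -2.27 ± 0.36 (SE), limma adjusted p = 7.94e-05). Hoxa3 had 114 and 128 in R377H ID against 408 and 364 in WT ID (log2 fold change -1.66 ± 0.20 (SE), limma adjusted p = 5.24e-06), and Hoxa9 23.6 and 20.6 in R377H ID against 108 and 81.2 in WT ID (log2 fold change -2.04 ± 0.26 (SE), limma adjusted p = 8.01e-06). Both R377H ID libraries were below all other libraries of the joint table for these 3 genes. Hoxa7 had 95.4 and 80.4 in R377H ID against 150.0 and 176 in WT ID (log2 fold change -0.89 ± 0.18 (SE), limma adjusted p = 0.000940).

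In HoxD, Hoxd9 had 141 and 184 normalized counts in R377H ID against 409 and 331 in WT ID (log2 fold change -1.19 ± 0.16 (SE), limma adjusted p = 1.34e-05), Hoxd8 118 and 121 in R377H ID against 356 and 246 in WT ID (log2 fold change -1.30 ± 0.21 (SE), limma adjusted p = 0.000122) and Hoxd4 12.96 and 4.35 in R377H ID against 39.5 and 32.1 in WT ID (log2 fold change -2.08 ± 0.41 (SE), limma adjusted p = 0.000870). Hoxd13 was at 74.2 and 105 against 149 and 131 and did not pass (log2 fold change -0.66, adjusted p = 0.0506). Hoxd3, below the filter, had 0 reads over both R377H ID libraries and 13 in WT ID (upper end of the 95% interval of the ratio 0.419). In HoxC, the trunk genes Hoxc6 and Hoxc8 changed most. Hoxc6 had 20.03 and 25.00 in R377H ID against 64.4 and 64.2 in WT ID (log2 fold change -1.48 ± 0.30 (SE), limma adjusted p = 0.000971) and Hoxc8 37.7 and 32.6 in R377H ID against 85.6 and 82.2 in WT ID (log2 fold change -1.24 ± 0.27 (SE), limma adjusted p = 0.00179). Hoxc9, Hoxc12 and Hoxc4 fell by less. Hoxc9 had 65.97 and 42.4 in R377H ID against 70.95 and 112 in WT ID (-0.74 ± 0.25 (SE), adjusted p = 0.0362), Hoxc12 179 and 143 in R377H ID against 252 and 286 in WT ID (-0.74 ± 0.19 (SE), adjusted p = 0.00791) and Hoxc4 326 and 373 in R377H ID against 503 and 478 in WT ID (-0.49 ± 0.11 (SE), adjusted p = 0.00336). Centred on its chromosome, Hoxc9 was -0.72 (adjusted p = 0.0508).

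HoxB lies on chromosome 11, whose genes had a median log2 fold change of 0.54 in R377H ID, and 30 of the 38 tested coding neighbours of HoxB rose and 0 fell (median 0.63). Hoxb4 had 247 and 262 normalized counts in R377H ID against 163 and 142 in WT ID (log2 fold change 0.74 ± 0.18 (SE), limma adjusted p = 0.00398) and Hoxb7 93.1 and 70.6 in R377H ID against 46.1 and 37.1 in WT ID (log2 fold change 0.95 ± 0.26 (SE), limma adjusted p = 0.0106). Centred on the chromosome, neither passed, at 0.20 (adjusted p = 0.439) and 0.42 (adjusted p = 0.277), and the count over all clusters became 0 up and 13 down. Hoxb8, a gene of thoracic identity and blood progenitors, went against its chromosome with 27.1 and 39.1 in R377H ID against 46.1 and 82.2 in WT ID (log2 fold change -0.90 ± 0.32 (SE), limma adjusted p = 0.0439, and -1.43 (adjusted p = 0.00339) when centred). With any 1 of the 4 libraries left out, Hoxa2, Hoxa3, Hoxa7, Hoxa9, Hoxc6, Hoxc8, Hoxd4, Hoxd8 and Hoxd9 still passed (adjusted p of at most 0.0349). Hoxb4 did not pass without WT ID replicate 2 (adjusted p of up to 0.0516). Hoxb7 and Hoxb8 did not pass without WT ID replicate 2 or R377H ID replicate 1 (adjusted p of up to 0.111 and 0.418). Hoxc4 did not pass without R377H ID replicate 1 (adjusted p of up to 0.0559). Hoxc9 and Hoxc12 did not pass without WT ID replicate 2 or R377H ID replicate 2 (adjusted p of up to 0.381 and 0.109). Members called numbered 16 without WT ID replicate 1, 11 without WT ID replicate 2, 13 without R377H ID replicate 1 and 15 without R377H ID replicate 2.

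Among genes known to act on Hox clusters, Cdx2 fell by 2.50 and Cdx1 by 0.71 on the log2 scale in R377H ID (limma adjusted p = 6.19e-06 and 5.14e-05), and the retinoic acid receptor gene Rarb fell by 1.75 (limma adjusted p = 0.000146). Crabp1 rose by 1.11 (limma adjusted p = 0.000885). Of the 17 tested Cdx and retinoic acid inputs, 2 rose and 4 fell, where 14.4% and 10.7% of all genes did. Of 6 tested noncoding RNAs of the clusters, 4 fell: Halr1, beside HoxA (log2 -1.47, limma adjusted p = 7.70e-08), Hotairm1 (-0.96, adjusted p = 0.0112), Hoxaas2 (-1.52, adjusted p = 0.0153) and Hoxd3os1 (-2.11, adjusted p = 0.00109). The last 3 overlap members on the opposite strand, so reads may be shared between them. The posterior marker list, most of it Cdx1, summed to 141 and 148 TPM against 242 and 245 in WT ID. Of its 6 tested genes 0 rose and 2 fell, and the part of this list in the Hox result was not tested.

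R377C and R377H replace the same arginine, and the 2 lines differed. Tested directly, 17 of 31 members were higher in R377C ID than in R377H ID and 0 lower, where 7.88% of all genes were higher and 11.1% lower. HoxA had 6 of 9, HoxC 7 of 9, HoxD 3 of 7 and HoxB 1 of 6. This contrast was added after the first results had been seen. Hoxa9 had 62.7 and 56.3 normalized counts in R377C ID against 23.6 and 20.6 in R377H ID (log2 fold change 1.39 ± 0.26 (SE), limma adjusted p = 0.000722), Hoxa2 31.98 and 25.6 in R377C ID against 8.25 and 6.52 in R377H ID (1.83 ± 0.36 (SE), adjusted p = 0.00104) and Hoxa7 209 and 168 in R377C ID against 95.4 and 80.4 in R377H ID (1.09 ± 0.18 (SE), adjusted p = 0.000182). Hoxc8 had 107 and 78.8 in R377C ID against 37.7 and 32.6 in R377H ID (log2 fold change 1.36 ± 0.27 (SE), limma adjusted p = 0.00109), Hoxc9 146 and 114 in R377C ID against 65.97 and 42.4 in R377H ID (1.27 ± 0.25 (SE), adjusted p = 0.00127) and Hoxd8 214 and 248 in R377C ID against 118 and 121 in R377H ID (0.94 ± 0.21 (SE), adjusted p = 0.00358). The largest difference was in Hoxd4, with 33.9 and 32.7 in R377C ID against 12.96 and 4.35 in R377H ID (log2 fold change 1.99 ± 0.41 (SE), limma adjusted p = 0.00188). Chromosome 11 had a median of -0.49 in this contrast and the other 3 Hox chromosomes -0.00 (chromosome 2), 0.01 (chromosome 15) and 0.04 (chromosome 6). Centred on the chromosome, 15 of the 17 calls remained; Hoxa10 was 1.08 (adjusted p = 0.0571) and Hoxc11 was 0.72 (adjusted p = 0.0557). With any 1 of the 4 libraries left out, Hoxa2, Hoxa3, Hoxa7, Hoxa9, Hoxc6, Hoxc8, Hoxc9 and Hoxd8 still passed (adjusted p of at most 0.0480). Hoxa10 and Hoxc11 did not pass without R377C ID replicate 1, R377H ID replicate 1 or R377H ID replicate 2 (adjusted p of up to 0.353 and 0.498). Hoxb8 did not pass without R377C ID replicate 1 or R377H ID replicate 1 (adjusted p of up to 0.424). Hoxc5 did not pass whichever of the 4 libraries was left out (adjusted p of up to 0.188). Hoxc10 did not pass without R377C ID replicate 1 or R377H ID replicate 2 (adjusted p of up to 0.247). Hoxc12 and Hoxd4 did not pass without R377H ID replicate 2 (adjusted p of up to 0.0560 and 0.0678). Hoxd9 did not pass without R377H ID replicate 1 (adjusted p of up to 0.0573). The number called was 12 and 16 without R377C ID replicate 1 or 2 and 12 and 11 without R377H ID replicate 1 or 2.

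In R448Q ID 6 of 9 HoxC genes fell, while 1 of 9 HoxA and 3 of 6 HoxB genes rose. Of 31 members 11 fell and 4 rose, in a comparison where 23.1% of all genes fell and 22.8% rose, so the share that rose is below that of all genes. In either direction 15 of 31 members were called, a share near the 45.8% of all genes. HoxC had 6 of 9 lower (median -0.66) and its 38 tested coding neighbours 18 lower and 4 higher (median -0.22). Hoxc8 had 26.2 and 27.7 normalized counts in R448Q ID against 85.6 and 82.2 in WT ID (log2 fold change -1.60 ± 0.27 (SE), limma adjusted p = 5.92e-05). Hoxc13, abundant and posterior, had 387 and 493 in R448Q ID against 718 and 682 in WT ID (log2 fold change -0.68 ± 0.14 (SE), limma adjusted p = 0.000378). For these 2 genes the R448Q ID libraries were the lowest of the joint table. Hoxc5 had 20.2 and 48.04 in R448Q ID against 70.2 and 54.1 in WT ID (-0.96 ± 0.32 (SE), adjusted p = 0.0198), Hoxc6 25.2 and 41.6 in R448Q ID against 64.4 and 64.2 in WT ID (-0.97 ± 0.30 (SE), adjusted p = 0.0122), Hoxc9 59.5 and 52.7 in R448Q ID against 70.95 and 112 in WT ID (-0.66 ± 0.25 (SE), adjusted p = 0.0381) and Hoxc12 185 and 181 in R448Q ID against 252 and 286 in WT ID (-0.55 ± 0.19 (SE), adjusted p = 0.0258). Hoxc4, at the other end of the cluster, did not pass (log2 fold change -0.17). Centred on the chromosome, Hoxc9 was -0.54 (adjusted p = 0.0962) and Hoxc12 was -0.43 (adjusted p = 0.0902).

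HoxA split gene by gene. Hoxa7 had 414 and 406 normalized counts in R448Q ID against 150.0 and 176 in WT ID (log2 fold change 1.33 ± 0.18 (SE), limma adjusted p = 4.65e-06), its highest level in the joint table. Hoxa3 fell with 170.4 and 162 in R448Q ID against 408 and 364 in WT ID (log2 fold change -1.21 ± 0.20 (SE), limma adjusted p = 6.80e-05), and Hoxa13 fell with 26.2 and 26.8 in R448Q ID against 69.5 and 45.1 in WT ID (log2 fold change -1.05 ± 0.27 (SE), limma adjusted p = 0.00353). Hoxa4 had 22.2 and 22.2 in R448Q ID against 43.9 and 58.2 in WT ID (-1.15 ± 0.44 (SE), adjusted p = 0.0400). Centred on its chromosome, Hoxa4 was -1.08 (adjusted p = 0.0560). In HoxB, Hoxb4 had 239 and 265 in R448Q ID against 163 and 142 in WT ID (log2 fold change 0.72 ± 0.18 (SE), limma adjusted p = 0.00223), Hoxb7 72.6 and 84.99 in R448Q ID against 46.1 and 37.1 in WT ID (0.91 ± 0.26 (SE), adjusted p = 0.00764) and Hoxb13, a gene of the tail end and prostate, 291 and 284 in R448Q ID against 218 and 189 in WT ID (0.50 ± 0.15 (SE), adjusted p = 0.00832). The chromosome 11 median was 0.14 and 17 of 38 HoxB neighbours rose and 8 fell (median 0.27). In HoxD, Hoxd9 had 251 and 248.5 in R448Q ID against 409 and 331 in WT ID (log2 fold change -0.56 ± 0.16 (SE), limma adjusted p = 0.00709) and Hoxd8 160.3 and 204 in R448Q ID against 356 and 246 in WT ID (-0.70 ± 0.21 (SE), adjusted p = 0.0106), while Hoxd13 was at 188 and 177 and did not pass.

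With any 1 of the 4 libraries left out, Hoxa3, Hoxa7, Hoxb4, Hoxc8 and Hoxc13 still passed (adjusted p of at most 0.0313). Hoxa4 did not pass whichever of the 4 libraries was left out (adjusted p of up to 0.194). Hoxa13 and Hoxd9 did not pass without WT ID replicate 1 (adjusted p of up to 0.0820 and 0.113). Hoxb7 did not pass without WT ID replicate 2 or R448Q ID replicate 2 (adjusted p of up to 0.0757). Hoxb13 did not pass without WT ID replicate 2 (adjusted p of up to 0.0921). Hoxc5 and Hoxd8 did not pass without WT ID replicate 1 or R448Q ID replicate 1 (adjusted p of up to 0.427 and 0.186). Hoxc6 did not pass without WT ID replicate 1, WT ID replicate 2 or R448Q ID replicate 1 (adjusted p of up to 0.182). Hoxc9 and Hoxc12 did not pass without WT ID replicate 2, R448Q ID replicate 1 or R448Q ID replicate 2 (adjusted p of up to 0.401 and 0.148). Calls in R448Q ID numbered 9 without WT ID replicate 1, 10 without WT ID replicate 2, 9 without R448Q ID replicate 1 and 11 without R448Q ID replicate 2. Set against a running median of 101 genes along the chromosome, a choice made after the data were seen, 7 of the 15 calls remained (1 up, Hoxa7, and 6 down, Hoxa3, Hoxa13, Hoxc8, Hoxc13, Hoxd8 and Hoxd9). R448Q ID also had Cdx2 higher by log2 1.96 (limma adjusted p = 3.60e-05). Of the 17 tested Cdx and retinoic acid inputs, 2 rose and 5 fell there, where 22.8% and 23.1% of all genes did. Aldh1a3 fell by 2.10 and Dhrs3 by 1.64 on the log2 scale. Hox cofactors moved too: Meis2 rose by 2.10 and Meis1 by 1.64, and Pknox2 fell by 1.84 on the log2 scale (limma adjusted p = 2.57e-06, 6.29e-06 and 2.47e-07). The neural ectoderm list summed to 234 and 218 TPM against 106 and 99.7 in WT ID (Tubb3 rose by log2 1.92), and its part in the Hox result was not tested.

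**Figure D4:**
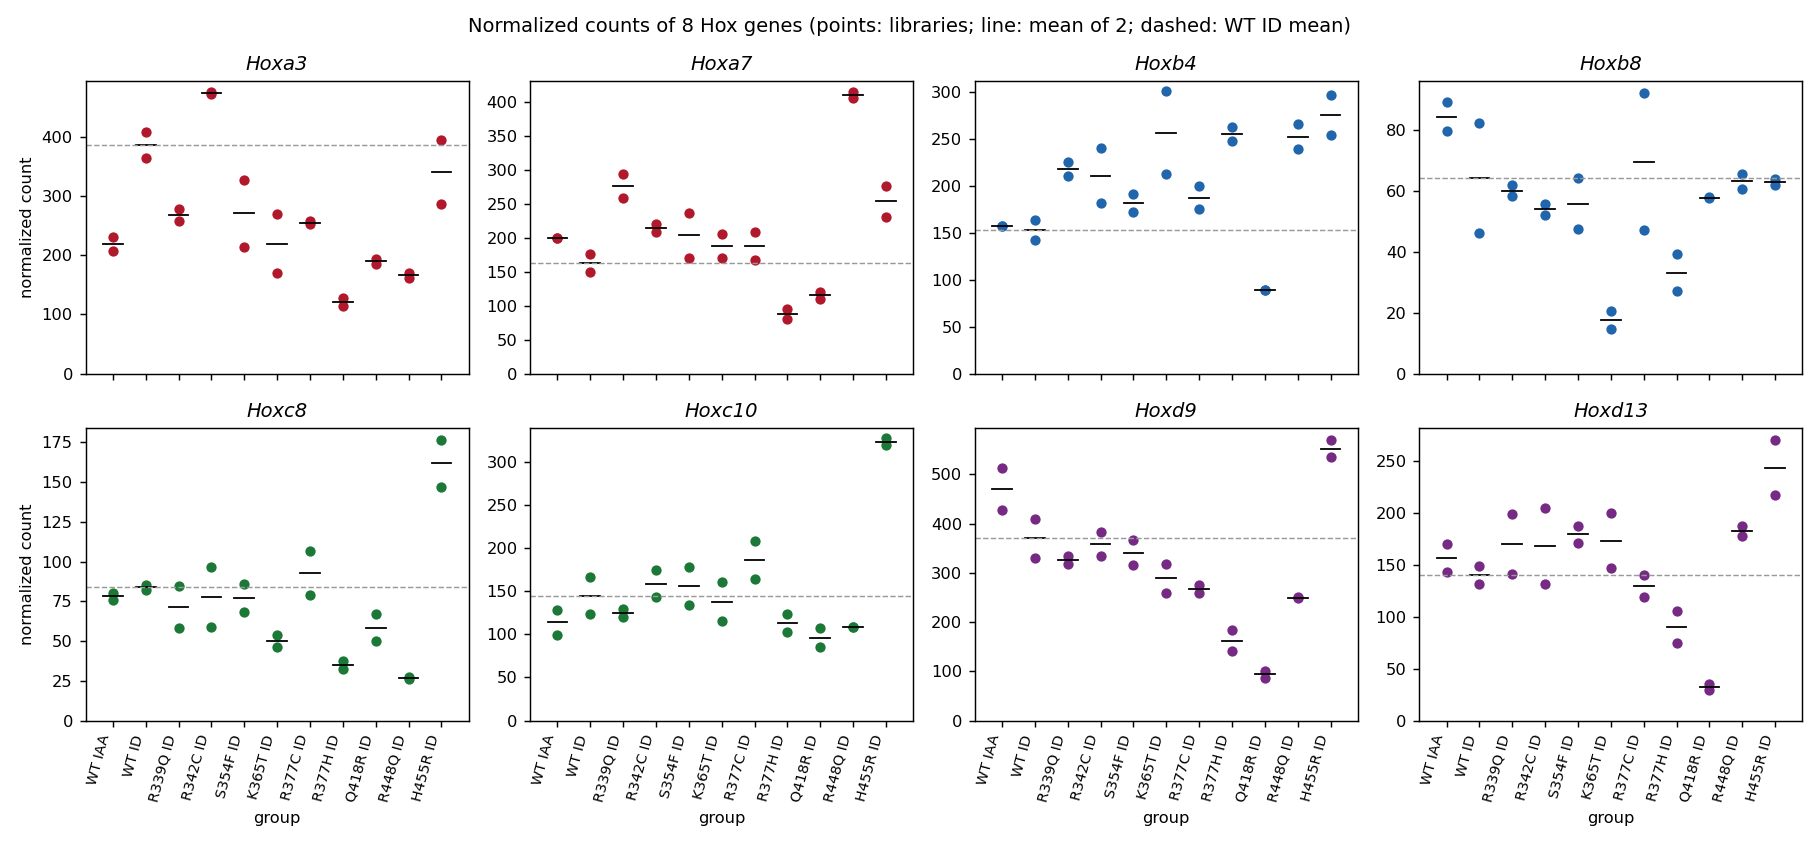
Normalized counts, on axes from 0, of Hoxa3, Hoxa7, Hoxb4, Hoxb8, Hoxc8, Hoxc10, Hoxd9 and Hoxd13 in the 22 libraries of the joint table (points), with group means (line) and the WT ID mean (dashed). Hoxa7 peaks at 414 and 406 in R448Q ID, Hoxc10 at 327 and 319 in H455R ID, Hoxb8 is lowest at 20.5 and 14.8 in K365T ID, and Hoxd9 and Hoxd13 are lowest in Q418R ID.

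In H455R ID Hox genes rose, most in HoxC. Of 31 members 11 rose and 0 fell, where 12.6% of all genes rose and 10.5% fell, and the Hox median was 0.58 beside -0.01 for all genes. HoxC had 5 of 9 higher (median 0.82), HoxD 3 of 7 (0.62), HoxB 2 of 6 (0.63) and HoxA 1 of 9 (-0.20). Without Hoxd10, which passed the filter only through this group, 10 of 30 rose, 2 of 6 in HoxD. No Hox chromosome was shifted by more than 0.03, and the neighbours of HoxC had a median of -0.02. Hoxc10, a lumbar and hindlimb gene, had 327 and 319 normalized counts in H455R ID against 123 and 166 in WT ID (log2 fold change 1.17 ± 0.22 (SE), limma adjusted p = 0.000686). Hoxc8 had 176 and 147 in H455R ID against 85.6 and 82.2 in WT ID (log2 fold change 0.93 ± 0.27 (SE), limma adjusted p = 0.0157). Hoxc5 had 126 and 128 in H455R ID against 70.2 and 54.1 in WT ID (log2 fold change 1.03 ± 0.32 (SE), limma adjusted p = 0.0256). In each the 2 H455R ID libraries were the highest of the joint table. Hoxc9 had 166 and 151 in H455R ID against 70.95 and 112 in WT ID (0.82 ± 0.25 (SE), adjusted p = 0.0241) and Hoxc11 281 and 239 in H455R ID against 130.2 and 160.4 in WT ID (0.84 ± 0.24 (SE), adjusted p = 0.0166). The 2 genes at the posterior end, Hoxc12 and Hoxc13, and Hoxc4 at the other end did not pass (log2 fold changes 0.40, 0.18 and -0.10).

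In HoxD, Hoxd9 had 570.0 and 534 normalized counts in H455R ID against 409 and 331 in WT ID (log2 fold change 0.58 ± 0.16 (SE), limma adjusted p = 0.0111) and Hoxd13 269.5 and 217 in H455R ID against 149 and 131 in WT ID (0.78 ± 0.24 (SE), adjusted p = 0.0224), and both are genes that fell in Q418R ID. The weak Hoxd10 had 20.3 and 24.9 in H455R ID against 10.2 and 3.01 in WT ID; since it is in the tested set only through H455R ID, its call there supports nothing. In HoxB, Hoxb4 had 297 and 253 in H455R ID against 163 and 142 in WT ID (log2 fold change 0.84 ± 0.18 (SE), limma adjusted p = 0.00160) and Hoxb13 353 and 321 in H455R ID against 218 and 189 in WT ID (0.73 ± 0.15 (SE), adjusted p = 0.00119). Hoxa7 was the single HoxA gene, with 277 and 231 in H455R ID against 150.0 and 176 in WT ID (0.63 ± 0.18 (SE), adjusted p = 0.0139). With any 1 of the 4 libraries left out, Hoxb4, Hoxb13 and Hoxc10 still passed (adjusted p of at most 0.0310). Hoxa7 and Hoxc11 did not pass without WT ID replicate 1 or H455R ID replicate 1 (adjusted p of up to 0.141 and 0.147). Hoxc5 did not pass whichever of the 4 libraries was left out (adjusted p of up to 0.179). Hoxc8 and Hoxd13 did not pass without WT ID replicate 1, WT ID replicate 2 or H455R ID replicate 1 (adjusted p of up to 0.125 and 0.178). Hoxc9 did not pass without WT ID replicate 1, H455R ID replicate 1 or H455R ID replicate 2 (adjusted p of up to 0.309). Hoxd9 did not pass without WT ID replicate 2 or H455R ID replicate 1 (adjusted p of up to 0.149). Calls in H455R ID numbered 5 without WT ID replicate 1, 7 without WT ID replicate 2, 3 without H455R ID replicate 1 and 8 without H455R ID replicate 2. The trophectoderm list was highest here, at 236 and 211 TPM against 149 and 127 in WT ID (Krt8 and Krt18 rose by log2 1.12 and 1.07, and Elf5, a defining marker, stayed at or below 0.036 TPM in all 24 libraries), and its part in the Hox result was not tested.

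In K365T ID HoxB changed in both directions. Of 31 members 4 rose and 5 fell, where 17.7% and 14.2% of all genes did and 32.0% were called in all. Without Hoxd10, 3 of 30 rose, all in HoxB. Hoxb8 had 20.5 and 14.8 normalized counts in K365T ID against 46.1 and 82.2 in WT ID (log2 fold change -1.77 ± 0.32 (SE), limma adjusted p = 0.000297), the lowest of the joint table. Its neighbours on either side went apart. Hoxb7 had 86.9 and 83.98 in K365T ID against 46.1 and 37.1 in WT ID (log2 fold change 1.03 ± 0.26 (SE), limma adjusted p = 0.00513), and Hoxb9 had 620.2 and 513 in K365T ID against 668 and 908 in WT ID (-0.46 ± 0.16 (SE), adjusted p = 0.0318). Hoxb4 had 212 and 301 in K365T ID against 163 and 142 in WT ID (0.72 ± 0.18 (SE), adjusted p = 0.00366) and Hoxb13 341 and 363 in K365T ID against 218 and 189 in WT ID (0.79 ± 0.15 (SE), adjusted p = 0.000379). Chromosome 11 had a median of 0.37 and the coding neighbours of HoxB 21 higher and 2 lower of 38 (median 0.38). Centred on the chromosome, Hoxb13 was 0.43 (adjusted p = 0.0301), Hoxb8 -2.13 (adjusted p = 7.64e-05), Hoxb7 0.66 (adjusted p = 0.0672) and Hoxb4 0.36 (adjusted p = 0.132).

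In HoxA, Hoxa3 had 169 and 269 normalized counts in K365T ID against 408 and 364 in WT ID (log2 fold change -0.85 ± 0.20 (SE), limma adjusted p = 0.00342). Hoxc8 had 53.7 and 46.5 in K365T ID against 85.6 and 82.2 in WT ID (-0.74 ± 0.27 (SE), adjusted p = 0.0420), and did not pass once centred (-0.70 (adjusted p = 0.0601)). Hoxd10 had 14.7 and 28.4 in K365T ID against 10.2 and 3.01 in WT ID (1.68 ± 0.61 (SE), adjusted p = 0.0426), but K365T ID is its highest group after H455R ID, and it was not called by DESeq2 (adjusted p = 0.0921) or against the running median (adjusted p = 0.0606). With any 1 of the 4 libraries left out, Hoxb8 and Hoxb13 still passed (adjusted p of at most 0.0122). Hoxa3 did not pass without K365T ID replicate 1 (adjusted p of up to 0.0767). Hoxb4 did not pass without K365T ID replicate 2 (adjusted p of up to 0.0863). Hoxb7 did not pass without WT ID replicate 2 (adjusted p of up to 0.0613). Hoxb9 and Hoxd10 did not pass without WT ID replicate 2 or K365T ID replicate 2 (adjusted p of up to 0.371 and 0.383). Hoxc8 did not pass whichever of the 4 libraries was left out (adjusted p of up to 0.179). Calls in K365T ID numbered 7 without WT ID replicate 1, 6 without WT ID replicate 2, 6 without K365T ID replicate 1 and 6 without K365T ID replicate 2. Against the running median, 5 calls remained, among them Hoxa3, Hoxb8, Hoxb9 and Hoxb13. Among inputs to the clusters, Rarb fell by 1.94 on the log2 scale (limma adjusted p = 4.84e-05) and Cdx1 by 0.63 (limma adjusted p = 0.000169). Crabp1 rose by 1.22 (limma adjusted p = 0.000323). Of the 17 inputs tested, 2 rose and 3 fell, where 17.7% and 14.2% of all genes did. The posterior list, most of it Cdx1, summed to 162 and 158 TPM against 242 and 245 in WT ID. Of its 6 tested genes 1 rose and 1 fell. Its part in the Hox result was not tested.

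The other 5 comparisons changed few Hox genes. WT IAA, in which the transgene was off, differed from WT ID in 2 members, 1 up and 1 down, where 9.96% of all genes were higher and 10.7% lower. Hoxa10, a gene of the lumbar axis and uterus, was higher, with 88.5 and 69.5 normalized counts in WT IAA against 41.7 and 31.1 in WT ID (log2 fold change 1.10 ± 0.37 (SE), limma adjusted p = 0.0421). Hoxa3 was lower, with 231 and 207 in WT IAA against 408 and 364 in WT ID (log2 fold change -0.82 ± 0.20 (SE), limma adjusted p = 0.00824). Median log2 fold changes were 0.27 in HoxA, 0.16 in HoxB, -0.01 in HoxC and 0.28 in HoxD. Hoxa3 did not pass without WT IAA replicate 2 or WT ID replicate 1 (adjusted p of up to 0.0776). Hoxa10 did not pass whichever of the 4 libraries was left out (adjusted p of up to 0.243). By unadjusted p under 0.05 there were 8 members, a threshold at which the share of all genes was not counted. The number called was 2 and 0 without WT IAA replicate 1 or 2, and 0 and 1 without WT ID replicate 1 or 2.

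R339Q ID had 3 members up and 2 down (background 11.8% and 9.7%). Hoxa7 had 294 and 259 normalized counts in R339Q ID against 150.0 and 176 in WT ID (log2 fold change 0.76 ± 0.18 (SE), limma adjusted p = 0.00442), Hoxb13 310.0 and 308 in R339Q ID against 218 and 189 in WT ID (0.61 ± 0.15 (SE), adjusted p = 0.00558) and Hoxb4 225 and 210.4 in R339Q ID against 163 and 142 in WT ID (0.51 ± 0.18 (SE), adjusted p = 0.0445). Hoxc4, a cervical gene, was lower with 349.7 and 360.2 in R339Q ID against 503 and 478 in WT ID (log2 fold change -0.46 ± 0.11 (SE), limma adjusted p = 0.00642) and so was Hoxa4 with 20.3 and 20.2 in R339Q ID against 43.9 and 58.2 in WT ID (-1.28 ± 0.44 (SE), adjusted p = 0.0460). Hoxb4 did not pass when centred on its chromosome (0.42 (adjusted p = 0.0879)). Hoxa4 and Hoxb4 did not pass whichever of the 4 libraries was left out (adjusted p of up to 0.234 and 0.250). Hoxa7 and Hoxc4 did not pass without WT ID replicate 1 or R339Q ID replicate 1 (adjusted p of up to 0.0664 and 0.0612). Hoxb13 did not pass without WT ID replicate 2 (adjusted p of up to 0.0763). Calls in R339Q ID numbered 1 without WT ID replicate 1, 2 without WT ID replicate 2, 1 without R339Q ID replicate 1 and 3 without R339Q ID replicate 2. R342C ID had 1 up and 1 down (background 10.0% and 13.3%). Hoxa13 had 119 and 117 in R342C ID against 69.5 and 45.1 in WT ID (log2 fold change 1.06 ± 0.27 (SE), limma adjusted p = 0.00871) and Hoxc4 386 and 363 in R342C ID against 503 and 478 in WT ID (-0.39 ± 0.11 (SE), adjusted p = 0.0196). Hoxa3 was highest of the joint table here, at 472 and 476, and did not pass (log2 fold change 0.30). Hoxa13 did not pass without WT ID replicate 2 or R342C ID replicate 1 (adjusted p of up to 0.142). Hoxc4 did not pass whichever of the 4 libraries was left out (adjusted p of up to 0.115). Calls in R342C ID numbered 1 without WT ID replicate 1, 0 without WT ID replicate 2, 1 without R342C ID replicate 1 and 1 without R342C ID replicate 2.

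S354F ID had 0 members called by limma, where 9.8% of all genes were called, 5.49% up and 4.31% down. At an unadjusted p under 0.05 it had 4, with no count of all genes at that threshold. EdgeR on recovered reads called 0 and DESeq2 1. Fold changes ran from log2 -0.54 to 1.00, the latter in the weak Hoxd10 (15.1 and 10.3 against 10.2 and 3.01 normalized counts). R377C ID had 1 call, Hoxb13 (background 8.09% called, 4.67% up and 3.43% down), with 265 and 304 normalized counts in R377C ID against 218 and 189 in WT ID (log2 fold change 0.48 ± 0.15 (SE), limma adjusted p = 0.0477), and it did not pass when centred on its chromosome (0.45 (adjusted p = 0.0573)). Hoxb13 did not pass whichever of the 4 libraries was left out (adjusted p of up to 0.313).

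Seen gene by gene, Hoxb4 was called in 6 comparisons, up in R339Q ID, K365T ID, R377H ID, R448Q ID and H455R ID and down in Q418R ID. Hoxb13, at the far end of HoxB, was called up in R339Q ID, K365T ID, R377C ID, R448Q ID and H455R ID and down in none. Hoxa3 was called down in WT IAA, K365T ID, R377H ID, Q418R ID and R448Q ID and up in none. Hoxc4 was called down in R339Q ID, R342C ID, R377H ID and Q418R ID. Hoxa7 was up in R339Q ID, R448Q ID and H455R ID and down in R377H ID and Q418R ID. Hoxc8 was down in K365T ID, R377H ID and R448Q ID and up in H455R ID. With chromosome centring, Hoxb4 lost its calls in R339Q ID, K365T ID and R377H ID, and with running centring that in R448Q ID too. Hoxb13 lost R377C ID with either centring and R448Q ID with running centring. Chromosome centring also took the Q418R ID calls of Hoxa3 and Hoxa7 and the K365T ID call of Hoxc8. How many of all genes were called in as many comparisons was not counted. The shared WT ID libraries enter each of these calls.

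Grouped by paralog number over the 4 clusters, the calls were spread over all 3 classes in the lines with most of them, except that H455R ID had none in groups 1 to 3. In Q418R ID 13.8% of all genes fell. There groups 1 to 3, 4 to 8 and 9 to 13 had 2 of 5, 6 of 12 and 6 of 14 lower, with medians of -1.02, -0.74 and -0.68. The last was 5 of 13 without Hoxd10, with a median of -0.58. In R377H ID they had 3 of 5, 7 of 12 and 4 of 14 lower and 0, 2 and 0 higher (medians -0.71, -0.89 and -0.65). Of all genes 10.7% fell and 14.4% rose there. In R448Q ID they had 1, 5 and 5 lower and 0, 3 and 1 higher (medians -0.63, -0.57 and -0.34). Since 23.1% of all genes fell and 22.8% rose there, 1 of 5 lower and 3 of 12 higher are near those shares. In H455R ID, where 12.6% of all genes rose, 0 of 5, 4 of 12 and 7 of 14 were higher (medians 0.00, 0.58 and 0.59). The last was 6 of 13 without Hoxd10. The difference between the classes was not tested.

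The 8 members below the filter were seen at 0.0385 TPM (Hoxb5) to 0.154 TPM (Hoxa6) on average, with maxima of 0.143 and 0.613 TPM in single libraries. Hoxb1 and Hoxb2, hindbrain genes, averaged 0.0473 and 0.104 TPM, and Hoxb6 0.0807. With a filter of a mean of 1 normalized count in place of 10, 3 changes among these 8 genes passed: Hoxd3 fell in R377H ID (log2 fold change -2.53, limma adjusted p = 0.00252), Hoxd12 fell in Q418R ID (-2.31, limma adjusted p = 0.00466) and Hoxb2 rose in H455R ID (2.07, limma adjusted p = 0.04997). Of the 3 tested members that were never called, Hoxa5, a lung and cervical gene, had 42.4 and 24.1 normalized counts in WT ID and a range of log2 fold changes from -1.28 to 0.58, Hoxd11 had 16.1 and 9.02 and Hoxb3 10.2 and 11.03.

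**Figure D5:**
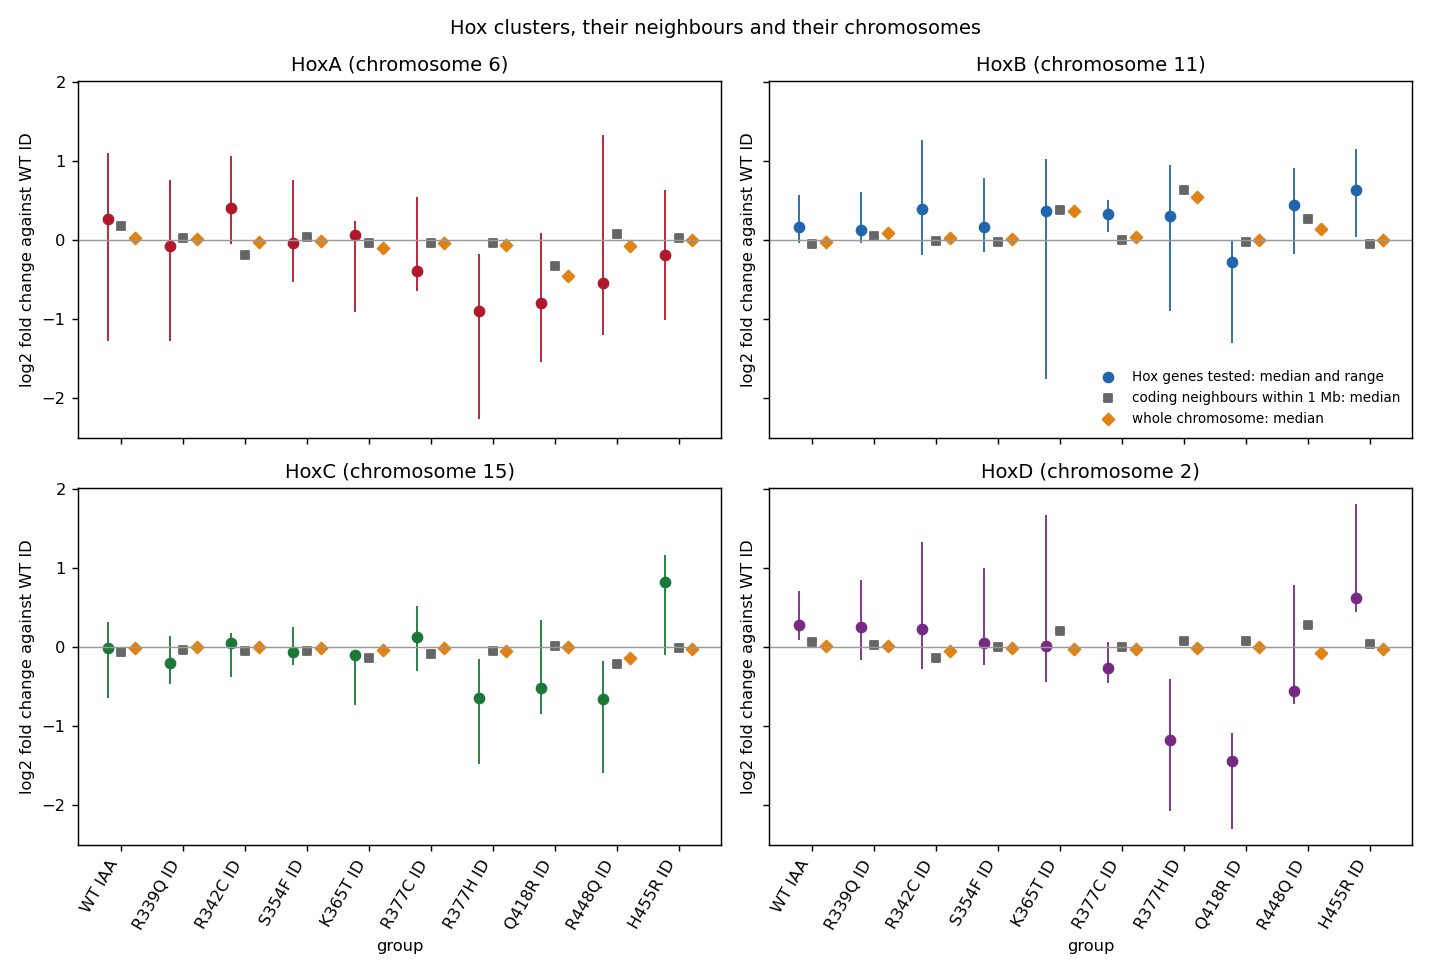
Log2 fold change against WT ID in the 10 comparisons, for each cluster: median and range of its tested Hox genes (circles and bars), median of the coding neighbours within 1 Mb (squares) and median of the chromosome (diamonds). HoxD in Q418R ID lies at -1.45 with neighbours at 0.08 and the chromosome at 0.00, while HoxB in R377H ID lies at 0.30 with neighbours at 0.63 and the chromosome at 0.54.

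The coding genes within 1 Mb of each cluster were read beside its members. HoxD neighbours were called in 0 of 7 cases in Q418R ID, 1 up (Chn1, log2 0.72) in R377H ID and 3 up and 0 down in R448Q ID (Chn1 and Mtx2 at 0.36 and 0.34). In these groups 6, 3 and 2 of the 7 tested HoxD members fell, and 5, 3 and 2 of 6 without Hoxd10. Of all genes 13.8%, 10.7% and 23.1% fell there and 11.2%, 14.4% and 22.8% rose. The 2 HoxD members that fell in R448Q ID are thus near the share of all genes. HoxA neighbours were called in 1 of 7 in R377H ID (Snx10, 0.43 up), where 5 of 9 HoxA members fell. HoxC neighbours in H455R ID had 5 up and 3 down of 38 (Nfe2, log2 1.61, and Itgb7 among those up), where 5 of 9 HoxC members rose. The neighbour counts are near the shares of all genes there, 12.6% up and 10.5% down.

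Proteins that bind DNA with Hox proteins were themselves transcribed, Pbx2 at 75.3 TPM in WT ID and Pknox1 at 15.2. Of 9 TALE cofactor genes, 5 rose and 2 fell in K365T ID, where 17.7% of all genes rose and 14.2% fell. In R448Q ID 4 rose and 2 fell (22.8% and 23.1% of all genes), and in R377H ID 2 and 4 (14.4% and 10.7%). In each of the other 7 comparisons 0 to 3 rose and 1 or 2 fell. Meis2 rose by log2 1.67 in K365T ID and 2.10 in R448Q ID and fell by 1.00 in R377H ID. Of 17 tested genes of the Cdx and retinoic acid inputs, 5 rose and 4 fell in Q418R ID, where 11.2% of all genes rose and 13.8% fell. In R448Q ID 2 rose and 5 fell (22.8% and 23.1% of all genes), and in R377H ID 2 and 4 (14.4% and 10.7%). In each of the other 7 comparisons 1 to 4 rose and 0 to 3 fell. Cdx2 was called up in Q418R ID (log2 1.04), where Hox genes fell, and in H455R ID (0.92), where they rose.

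Polycomb complex 2, which methylates histone H3 at lysine residues over silent Hox clusters, had 12 tested genes, and at most 4 rose (WT IAA, R339Q ID and R377H ID, where 9.96%, 11.8% and 14.4% of all genes did) and at most 3 fell (Q418R ID, 13.8%). Suz12 rose by log2 0.74 in R377H ID and 0.43 in K365T ID and fell by 0.40 in H455R ID. Ezh2 fell by 0.46 in Q418R ID. Of 19 genes of Polycomb complex 1, 9 rose and 3 fell in R448Q ID, where 22.8% of all genes rose and 23.1% fell. In Q418R ID 2 rose and 8 fell (11.2% and 13.8% of all genes), with Cbx8 and Cbx2 at -0.83 and -0.72. Among 13 trithorax and H3K27 demethylase genes, which counter Polycomb, Dpy30 rose in all 9 mutant groups, by log2 0.66 (R342C ID) to 1.39 (R448Q ID), and was not called in WT IAA. Of 4 zinc finger genes reported at Hox boundaries, Patz1 rose in R448Q ID (0.75), R377H ID (0.51), K365T ID (0.38) and Q418R ID (0.22) and fell in S354F ID and R342C ID (-0.26 and -0.24). By counts, 5 of the 13 trithorax and demethylase genes rose and 1 fell in R448Q ID, and 4 rose and 2 fell in Q418R ID. Of the 4 zinc finger genes, 0 rose and 3 fell in R342C ID, where 10.0% and 13.3% of all genes did. In S354F ID 0 rose and 2 fell (5.49% and 4.31% of all genes). Single genes are named as examples, and the relation of these lists to the Hox genes was not tested.

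Of 18 noncoding RNAs of the clusters found in the tables, 6 passed the filter. Halr1, whose gene lies beside HoxA, was the most abundant by normalized counts (mean 497) and was called down in S354F ID, K365T ID, R377C ID, R377H ID, Q418R ID, R448Q ID and H455R ID, by log2 0.37 (R448Q ID) to 1.47 (R377H ID), and up in none. In H455R ID, where it fell, 1 HoxA gene rose. The Mir196a-1 hairpin row, between Hoxb13 and Hoxb9, had a mean of 123 normalized counts and was called in no comparison. Total RNA libraries do not measure the mature microRNA. Hottip and Hotair averaged under 2 normalized counts. Of the Evx and ParaHox relatives, Pdx1 rose in R339Q ID, R342C ID, S354F ID, K365T ID and H455R ID (log2 1.81 to 2.08, at a mean of 14.9 normalized counts).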

How the data were processed

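Total RNA-seq was made from 24 libraries in 12 groups of 2. Reads were trimmed with Trim Galore, aligned with STAR to mm10 and normalized with DESeq2, per the submitters' processing notes. Neither tool versions nor the read counter and its strandedness are stated in the labels or notes used. The deposited signal values are the authors' normalized counts per gene (reads divided by a size factor), in 1 table for 22 libraries and another for the 2 untreated ones. TPM values per gene were also deposited by the authors. No column lay outside the series (0).

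Whole reads were recovered from the normalized counts. The log2 of the normalized count + 1 was fitted for the 18713 genes whose mean over 22 libraries reached 10, by limma 3.58.1 (R 4.3.3; trended variance, 1 coefficient per group), with Benjamini-Hochberg adjustment over all genes in each comparison and calls at an adjusted p under 0.05. Fold changes are on the log2(value + 1) scale and understate those of low genes. Untreated libraries were compared by the ratio of mean TPM + 0.1, called at 2-fold without overlap, with no test. EdgeR 4.0.16 and DESeq2 1.42.0 on recovered reads, TPM, another pseudocount, a looser filter, centring by chromosome, a replicate block and leaving out each library were alternatives. The procedure was tested on simulated data. Members and lists were chosen with earlier results of these data known. Values are given in full for members called in at least 1 comparison with WT ID and at a mean of 50 normalized counts or more, or called in at least 3, and for further members as examples; Hoxa2, Hoxa10, Hoxb2, Hoxd1, Hoxd3, Hoxd4 and Hoxd12 were added after their values were seen. Python 3.11.15, pandas 2.3.3, numpy 2.4.6 and matplotlib 3.10.9 were used. Results of 2 genes are not reported here; one is a member and is kept in counts, medians and sums.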

Additional observations from a re-analysis of the deposited data

How the results depend on the processing

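No named call changed direction under any alternative tried, but many did not stay called. Of the 70 named calls, 54 remained with chromosome centring, 47 with running centring, 69 with edgeR and 64 with DESeq2. Many also did not pass once a library was left out, as given for each comparison above. The number of Hox genes called in WT IAA was 2, and 1 with TPM or with the filter at a mean of 1. R339Q ID had 5, and 3 with that filter or with running centring. R342C ID had 2, and 4 with TPM. S354F ID had 0, and 1 with DESeq2 or with TPM. K365T ID had 9, and 5 with running centring, and R448Q ID 15 and 7. R377C ID had 1, 3 with DESeq2, and 0 with a pseudocount of 5, the filter at 1, either centring or the replicate block. Untreated cells had 21 genes called lower against WT ID and 21 against WT IAA, and 4 and 9 with TPM + 1, where the larger pseudocount shrinks the ratios of low genes. No share of all genes was counted with TPM + 1. The cause of the other changes was not tested.

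Leaving out 1 library gave 0 to 2 calls in WT IAA, 1 to 3 in R339Q ID, 0 to 1 in R342C ID and S354F ID, 6 to 7 in K365T ID, 0 in R377C ID, 11 to 16 in R377H ID, 9 to 11 in Q418R ID and R448Q ID, 3 to 8 in H455R ID and 11 to 16 between R377C ID and R377H ID; the lone library of a group is then assumed to vary like the others. With the replicate block, the numbers were 2 in WT IAA, 4 in R339Q ID, 2 in R342C ID, 0 in S354F ID, 9 in K365T ID, 16 in R377H ID, 13 in Q418R ID, 15 in R448Q ID and 11 in H455R ID. Replicate numbers did not pair the samples: over 55 pairs of groups the correlation of same-numbered deviations ran from -0.248 to 0.382 and exceeded 0.1 in 10. With 2 libraries a group and members often under 50 normalized counts, a gene that missed the threshold is not shown to be unchanged.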
